A study of Mus musculus with 48 samples.

Results

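The circadian clock and its direct output genes were examined in 10 members, namely Dbp, Tef, Hlf, Per1, Per2, Per3, Nr1d1, Nr1d2, Ciart and Arntl. They were listed by symbol and found through their Ensembl identifiers in GENCODE M21, and all 10 were present among the 22055 genes of each of the 4 deposited tables. They were chosen by symbol after the P42 and E15.5 levels of these same libraries had been seen. The differences between stages given for these 10 genes are therefore a description, without a test. Frozen brain, retina, heart, kidney, liver and lung came from wild-type C57BL/6 mice at postnatal day 42 (P42, young adult) and embryonic day 15.5 (E15.5). Each tissue and stage had 2 libraries of RNA-seq, which counts polyadenylated messenger RNA, and 2 of Ribo-seq, which sequences the fragments that ribosomes shield from nuclease (footprints). That made 24 groups of 2 biological replicates and 48 libraries. All groups share the wild-type genotype, none received a treatment per the labels, and lysis in cycloheximide, which stalls ribosomes, applied to all. Values are TPM, a transcript level scaled for gene length and library size.

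The mammalian clock is a feedback loop of transcription. ARNTL (also called BMAL1) pairs with CLOCK or NPAS2, binds E-box sequences and drives the Per and Cry genes, whose proteins then repress that pair. The same pair drives Nr1d1 and Nr1d2, whose REV-ERB proteins repress Arntl through RORE sequences, and the PAR bZIP factors DBP, TEF and HLF, which act on D-boxes in output genes such as those of liver and kidney detoxification. In adult tissue the messages of Arntl and of Dbp, Nr1d1 and the Per genes peak at different hours of the day, so that their levels depend on when a tissue is taken. The hour of collection is not given in the sources used here. With adult and embryonic tissue in separate groups, stage and hour of collection cannot be told apart in any value that follows. In whole tissue, fewer cells of a type and less RNA per cell cannot be told apart either.

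Clock elements were looked for as letters around the start sites of the members. RefSeq windows of GRCm38.p6, from 250 bases before to 50 bases after a start site, were matched for 9 of the 10 members in 12 windows. Searched on both strands were the E-box CACGTG, its variant CACGTT, the D-boxes TTATGTAA and TTACGTAA, the core AGGTCA of the RORE, and the full RORE, which is AANT followed by that core. Capitals mark the matches, and the windows are shown for a gene with several E-boxes, one with D-boxes, the target of the REV-ERB repressors, and a Per gene with an E-box.
Ciart (chr3:95882179-95882478, minus strand): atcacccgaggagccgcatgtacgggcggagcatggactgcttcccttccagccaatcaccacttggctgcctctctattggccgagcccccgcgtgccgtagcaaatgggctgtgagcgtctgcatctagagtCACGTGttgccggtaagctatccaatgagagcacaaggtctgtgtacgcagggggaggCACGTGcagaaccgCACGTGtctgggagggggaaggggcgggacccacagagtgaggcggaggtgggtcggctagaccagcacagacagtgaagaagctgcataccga
Per3 (chr4:151044616-151044915, minus strand): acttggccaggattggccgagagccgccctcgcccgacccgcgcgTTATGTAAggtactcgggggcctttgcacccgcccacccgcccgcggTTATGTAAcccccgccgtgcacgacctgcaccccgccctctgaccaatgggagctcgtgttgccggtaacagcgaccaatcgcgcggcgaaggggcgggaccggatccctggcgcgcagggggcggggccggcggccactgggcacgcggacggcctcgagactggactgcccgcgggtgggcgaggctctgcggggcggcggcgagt
Arntl (chr7:113207261-113207560, plus strand): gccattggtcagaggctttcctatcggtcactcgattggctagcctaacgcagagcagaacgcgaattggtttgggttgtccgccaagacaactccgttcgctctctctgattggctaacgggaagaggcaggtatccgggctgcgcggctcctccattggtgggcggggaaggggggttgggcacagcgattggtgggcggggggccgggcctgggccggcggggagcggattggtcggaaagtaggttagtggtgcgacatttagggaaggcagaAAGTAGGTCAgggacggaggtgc
Per1 (chr11:69098699-69098998, plus strand): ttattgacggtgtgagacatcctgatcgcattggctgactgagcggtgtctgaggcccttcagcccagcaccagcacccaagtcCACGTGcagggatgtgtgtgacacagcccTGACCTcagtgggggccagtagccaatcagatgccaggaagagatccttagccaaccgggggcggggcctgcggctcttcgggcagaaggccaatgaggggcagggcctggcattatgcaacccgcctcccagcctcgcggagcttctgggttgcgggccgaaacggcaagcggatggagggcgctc
The Ciart window held 3 E-boxes, the first bases of which lie at -116, -58 and -44 from the start site. The Per3 window held 2 D-boxes, at -205 and -158. The RORE of Arntl, matched as AAGTAGGTCA, begins 28 bases into the transcribed side of its second window, the start site counting as base 1. Per1 had an E-box at -166 and a RORE core at -137 on the other strand. The windows of Dbp and Hlf held no match, nor did the other window of Per1 and of Arntl. Tef had an E-box in both of its windows, Nr1d1 a variant E-box at -28 and Nr1d2 a RORE core at -77. Among all 32851 RefSeq windows of this length, 7.15% held the E-box, 4.68% its variant, 1.06% a D-box, 0.219% the RORE and 16.3% its core, so that the core in 3 of the 12 member windows is not far from the share of all windows. A match is a description of letters and not a measured binding site. No match says only that these letters are not in the window.

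The libraries differed in ways that touch the levels. By RNA-seq the listed genes took 48.94% to 93.38% of a full TPM total, and by Ribo-seq 23.14% to 61.13%. The lowest RNA-seq sum was in replicate 2 of E15.5 kidney, against 81.72% in its partner, so member differences in kidney mRNA are also given without it. They were then 1.87 for Tef (2.21 with it), 3.14 for Hlf (3.44), 1.78 for Nr1d1 (2.09) and 1.44 for Ciart (1.76). Per2 came to 0.43 (0.68), Per1 to -0.17 (0.09) and Arntl to -2.16 (-1.81). Those of Dbp, Nr1d2 and Per3 are given further on. Kidney mRNA values named for other genes include this library. Mitochondrially encoded genes took 0.34% to 55.51% of that total in RNA-seq. The top was P42 heart, with 54.25% and 55.51%, against 14.54% and 14.98% in E15.5 heart. P42 kidney replicate 2 came next at 23.67%. In each tissue the median gene stood lower at P42 by mRNA, with log2 differences of -0.23 in retina, -0.60 in brain, -0.81 in kidney, -0.89 in liver, -1.11 in lung and -1.61 in heart. Its footprint difference was 0.08 in retina, -0.01 in brain, -0.21 in lung, -0.74 in kidney, -0.85 in liver and -1.01 in heart. Differences are therefore given as deposited, on the log2(TPM + 1) scale, and where it matters relative to the median gene. Tissue markers were highest in their own tissue for 3 of 3 genes in heart, kidney, liver and lung at both stages, and for 2 of 2 in P42 retina. Exceptions were 1 of 3 in P42 brain, 2 of 3 in E15.5 brain and 1 of 2 for E15.5 retina. The last was the photoreceptor gene Rcvrn, at 0 and 0.366 TPM in E15.5 brain and 0.144 and 0 TPM in E15.5 retina. All these values are under the 1 TPM taken as detected. Other cell types were also unequal. The summed RNA-seq level of 4 erythroid genes in liver was 37.2 and 29.1 TPM at P42, against 3773 and 2835 TPM at E15.5. The sum of 4 adrenal genes in kidney was 1.63 and 1.94 TPM at P42, against 752 and 440.4 TPM at E15.5. For 4 lens genes in retina it was 77.0 and 235 TPM at P42, against 10.1 and 23.8 TPM at E15.5. Several P42 Ribo-seq libraries held markers of another tissue. The brain gene Snap25 had 2.78 and 10.6 TPM of footprints in liver and 6.94 and 1.62 TPM in heart. By RNA-seq it lay under 0.1 TPM in all P42 libraries of these tissues. Rcvrn had 3.24 and 3.82 TPM of footprints in kidney, against 0 TPM by RNA-seq. Lung replicate 1 held higher levels. In P42 lung the kidney gene Umod had 85.6 TPM in replicate 1 and 0.146 TPM in replicate 2, and Slc34a1 had 76.1 TPM in replicate 1 and 0.312 TPM in replicate 2. The third kidney marker, Nphs1, had 0.184 TPM in replicate 1 and was at 0 in replicate 2. In P42 kidney itself Umod footprints averaged 2903 TPM and those of Slc34a1 2468 TPM, and by RNA-seq each of the 3 markers lay under 0.1 TPM in both P42 lung libraries. Without replicate 1 the lung footprint differences of the members were 1.24 for Per3 (1.55 with it), 1.30 for Ciart (1.82), 2.95 for Nr1d2 (3.43), 2.90 for Tef (2.72), 0.82 for Per2 (0.93), 0.46 for Per1 (0.69) and -0.57 for Arntl (-0.58), and those of Dbp, Hlf and Nr1d1 are given with their values. The part of these cell types in the clock gene values was not tested.

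Among the PAR bZIP factors, Dbp set the widest distance between the stages. The 12 RNA-seq libraries of P42 spanned 70.1 to 294 TPM, with a median of 196 TPM, and the 12 of E15.5 spanned 1.94 to 10.9 TPM, with a median of 6.76 TPM. Dbp (chr7:45705088-45710203, plus strand) encodes a transcription factor whose message is among the most strongly rhythmic in adult liver. Its mRNA in brain was 194 and 198 TPM at P42, against 7.90 and 7.60 TPM at E15.5. In retina it was 204 and 294 TPM at P42, against 4.84 and 4.13 TPM at E15.5. Liver had 181 and 209 TPM at P42, against 1.94 and 2.48 TPM at E15.5. No tissue overlapped between stages, and E15.5 liver held the lowest level of all. In kidney Dbp mRNA stood at 229 and 228 TPM at P42, against 10.9 and 6.78 TPM at E15.5. Heart followed with 104 and 99.7 TPM at P42, against 8.84 and 9.20 TPM at E15.5. For lung the values were 113 and 70.1 TPM at P42, against 6.73 and 6.05 TPM at E15.5. The log2 differences were 3.36 in heart, 3.61 in lung, 4.50 in brain, 4.57 in kidney, 5.49 in retina and 5.93 in liver, each with a standard error of 0.218. Here and below the standard error of a gene is pooled over all groups in the model. It is the same in every tissue and does not measure the spread within a single tissue. Without replicate 2 of E15.5 kidney the kidney value was 4.27. Across the 4 alternative scalings the 6 differences ranged from 3.18 in heart to 7.17 in liver.

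**Figure D1:**
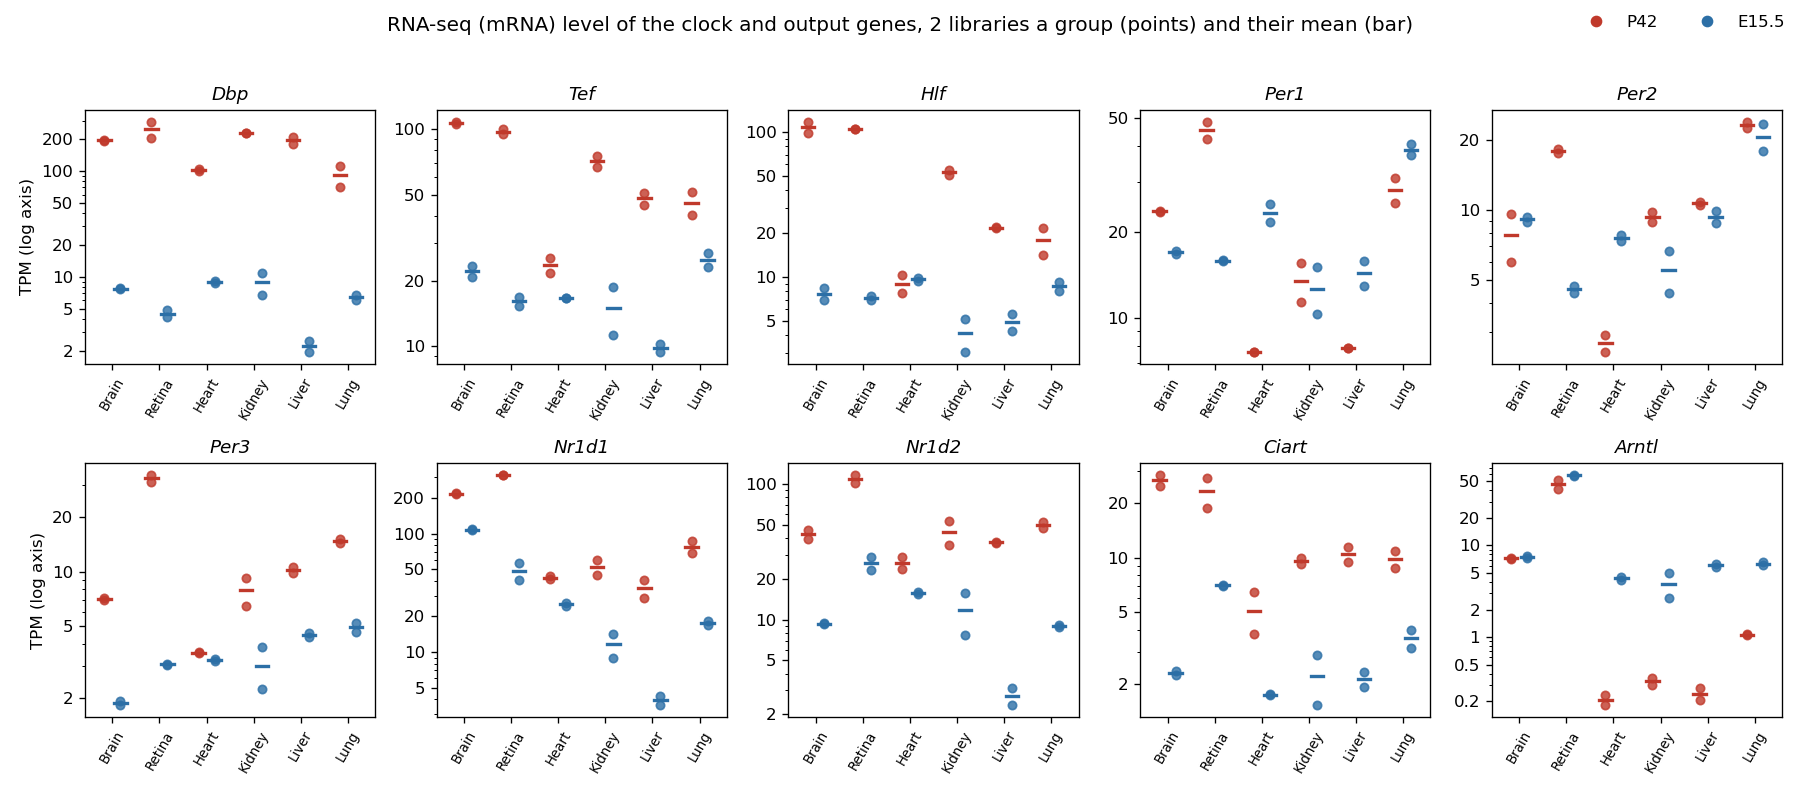
RNA-seq level in TPM (log axis) of each member in the 6 tissues, P42 in red to the left of E15.5 in blue; points are the 2 libraries of a group and bars their mean. Dbp, Tef, Per3, Nr1d1, Nr1d2 and Ciart lie higher at P42 in all 6 tissues, and Arntl lies below 1.1 TPM in P42 heart, kidney, liver and lung.

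Footprints on Dbp separated the stages in the same tissues at lower levels. The P42 Ribo-seq libraries spanned 18.3 to 72.4 TPM, and the E15.5 libraries 0.168 to 3.88 TPM. Liver had 31.4 and 56.2 TPM at P42, against 0.363 and 0.168 TPM at E15.5. Lung had 72.4 and 18.3 TPM at P42, against 1.84 and 1.77 TPM at E15.5. The 2 lung libraries of P42 lay far apart, but both were above every E15.5 library. The log2 difference in lung was 3.75 ± 0.428 (SE), with the error pooled over tissues. It was 2.78 without P42 lung replicate 1 and 4.71 without replicate 2. In the other tissues the footprint differences lay between 2.81 in heart and 5.09 in liver. Exons of Dbp share 539 bases, or 18.009% of their length, with Sphk2 on the opposite strand. Whether the counting used strand is not given in the sources used here, so reads from that stretch cannot be told apart. Sphk2, a sphingosine kinase, averaged 36.09 to 86.01 TPM over the P42 tissues and 15.01 to 24.15 TPM over the E15.5 tissues.

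Tef and Hlf, the close relatives of Dbp, were higher at P42 in most tissues but not in the same order. Tef (chr15:81802421-81826863, plus strand) had 108 and 106 TPM in P42 brain, against 20.9 and 23.4 TPM in E15.5 brain. In heart its mRNA was 25.6 and 21.7 TPM at P42, against 16.7 and 16.6 TPM at E15.5. The groups did not overlap in any of the 6 tissues, with log2 differences of 0.48 in heart and 0.85 in lung at the low end and 2.53 ± 0.192 (SE) in retina at the high end. Hlf (chr11:90336536-90390895, minus strand), also named for a leukaemia fusion, reached 98.4 and 118 TPM in P42 brain, against 8.35 and 6.98 TPM in E15.5 brain. Retina was similar, with 106 and 105 TPM at P42, against 6.99 and 7.43 TPM at E15.5. In heart the stages overlapped, with 10.3 and 7.71 TPM at P42 and 9.89 and 9.46 TPM at E15.5. The difference of Hlf mRNA ran from -0.10 in heart and 0.95 in lung to 3.44 in kidney, 3.66 in brain and 3.70 in retina, with a standard error of 0.211. Relative to the median gene heart stood at 1.51, so its direction there depends on the scaling. By footprint the Hlf difference was 3.82 ± 0.271 (SE) in brain, 4.28 in retina and 0.15 in heart. At P42 the order of tissues by Hlf mRNA was brain and retina, then kidney, then liver and lung, then heart, with overlapping libraries within each of the pairs named.

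The REV-ERB repressors stood higher at P42 in every tissue by both assays. Nr1d1 (chr11:98767932-98775333, minus strand), which encodes REV-ERB alpha, was the most abundant member in P42 retina. Its mRNA there was 313 and 315 TPM, against 56.4 and 40.9 TPM in E15.5 retina. Brain had 219 and 218 TPM at P42, against 109.5 and 107 TPM at E15.5. In liver the values were 40.6 and 28.6 TPM at P42, against 3.56 and 4.26 TPM at E15.5. Brain held the highest E15.5 level and liver the lowest, a 27.7-fold range of group means, against a 9.07-fold range among the P42 tissues. Heart had 43.9 and 41.1 TPM at P42, against 26.1 and 24.5 TPM at E15.5. Kidney had 44.7 and 59.7 TPM at P42, against 14.3 and 8.94 TPM at E15.5. Lung had 86.6 and 69.1 TPM at P42, against 17.1 and 18.2 TPM at E15.5. The log2 differences of Nr1d1 mRNA were 0.73 in heart, 1.00 in brain, 2.07 in lung, 2.09 in kidney, 2.68 in retina and 2.84 in liver, with a standard error of 0.213. Brain rested on the threshold of 1 used for calls, and it was 0.95 with listed genes rescaled to an equal sum. Exons of Nr1d1 share 263 bases, or 8.547%, with Thra on the opposite strand, which in brain averaged 646 TPM at P42 and 586 TPM at E15.5 and in liver 10.8 TPM at P42 and 26.0 TPM at E15.5.

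The log2 difference of Nr1d1 footprints exceeded that of its mRNA in each of the 6 tissues, a comparison given as a description. In retina they stood at 98.1 and 121 TPM at P42, against 7.01 and 5.80 TPM at E15.5. In kidney they were 41.5 and 57.2 TPM at P42, against 4.08 and 3.15 TPM at E15.5. Lung had 186 and 40.7 TPM at P42, against 3.62 and 3.59 TPM at E15.5. The lung libraries of P42 again lay far apart, replicate 1, the library with kidney markers, being the higher one for Dbp as well. The footprint differences were 1.88 in heart, 2.21 in brain, 3.44 in kidney, 3.82 in liver, 3.90 in retina and 4.26 in lung, with a standard error of 0.466. Without P42 lung replicate 1 the lung value was 3.18. Nr1d2 (chr14:18204054-18239127, minus strand), which encodes REV-ERB beta, had its highest mRNA in retina, with 117 and 103 TPM at P42, against 23.3 and 28.9 TPM at E15.5. Liver showed its widest distance, with 37.4 and 36.9 TPM at P42, against 3.14 and 2.33 TPM at E15.5. The log2 differences of Nr1d2 mRNA ran from 0.71 ± 0.234 (SE) in heart to 3.36 in liver, and those of its footprints from 1.42 ± 0.254 (SE) in heart to 3.56 in brain. Without replicate 2 of E15.5 kidney its kidney mRNA value of 1.89 became 1.42.

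**Figure D2:**
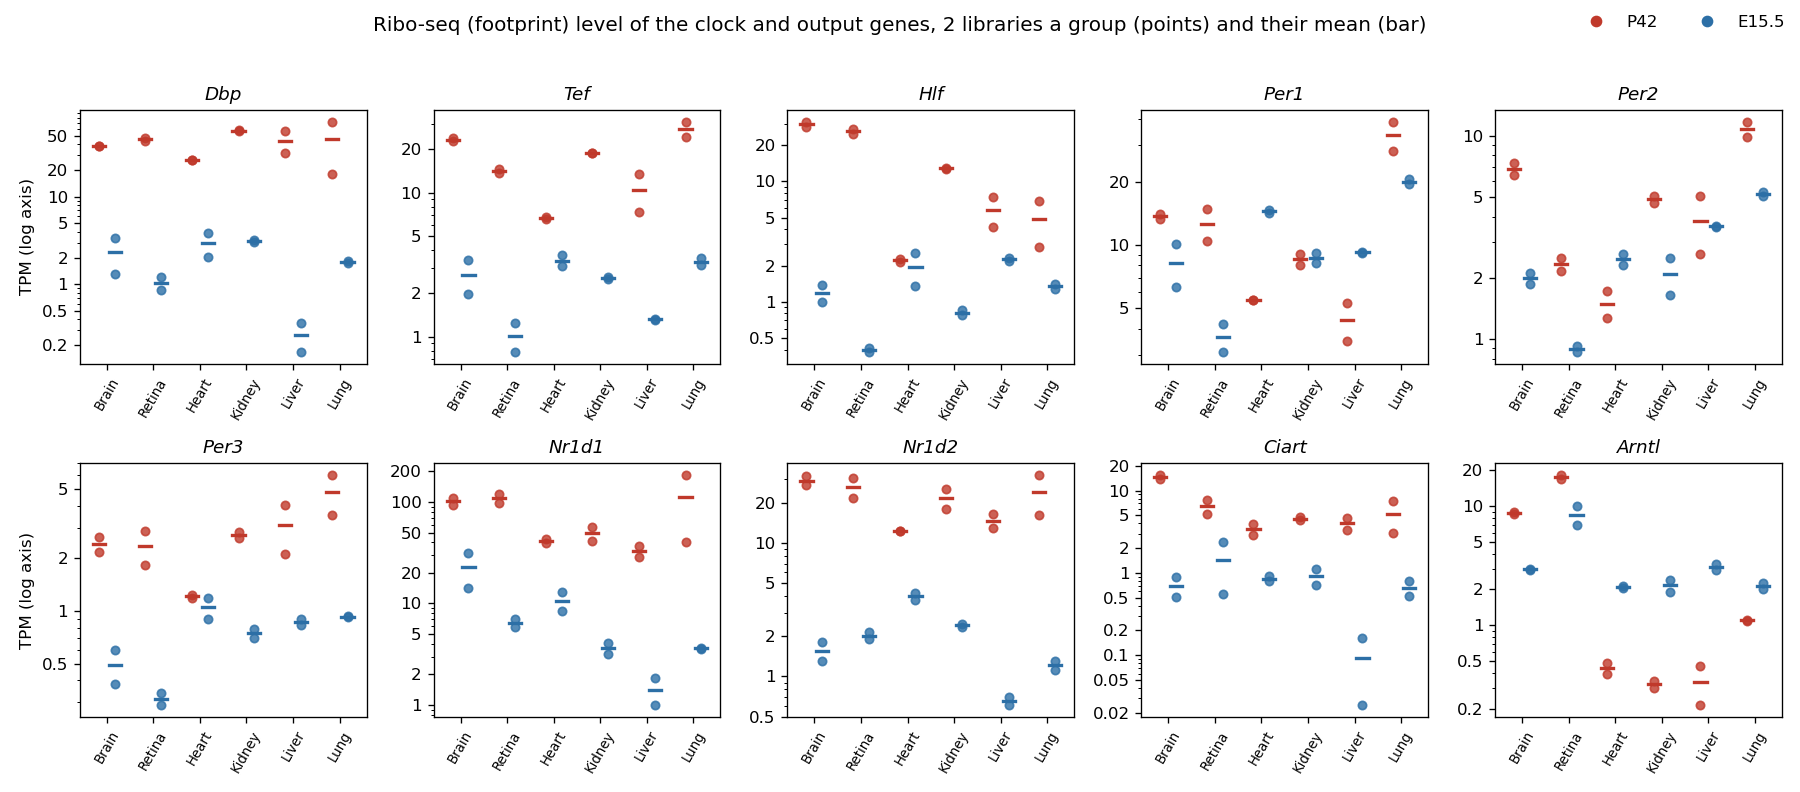
Ribo-seq level in TPM (log axis) of each member in the 6 tissues, P42 in red to the left of E15.5 in blue; points are the 2 libraries of a group and bars their mean. Arntl footprints lie higher at P42 in brain and retina and lower at P42 in the other 4 tissues, and the 2 P42 lung libraries of Dbp and Nr1d1 lie far apart.

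Arntl (chr7:113207465-113314126, plus strand), the partner of CLOCK and NPAS2 and the target of the REV-ERB repressors, stood lower at P42 by mRNA in 5 tissues. On the same deposited scale Per1 was lower in 3 tissues and Per2 in 1. Arntl mRNA in liver was 0.276 and 0.206 TPM at P42, against 6.28 and 5.84 TPM at E15.5. Heart had 0.181 and 0.235 TPM at P42, against 4.49 and 4.23 TPM at E15.5. In kidney it was 0.360 and 0.301 TPM at P42, against 4.95 and 2.65 TPM at E15.5. These 3 tissues held under 1 TPM in both P42 libraries, below the level at which a gene was taken as detected. Lung had 1.05 and 1.07 TPM at P42, against 6.12 and 6.54 TPM at E15.5. In brain the stages overlapped, with 7.13 and 7.35 TPM at P42 and 7.33 and 7.66 TPM at E15.5. Retina was high at both, with 51.0 and 41.1 TPM at P42, against 57.0 and 58.8 TPM at E15.5. The log2 differences were -2.51 in liver, -2.15 in heart, -1.83 in lung, -1.81 in kidney, -0.33 in retina and -0.04 in brain, with a standard error of 0.182. The pseudocount of 1 shrinks differences at levels this low. Relative to the median gene they were -1.62 in liver, -0.54 in heart, -0.72 in lung, -1.0 in kidney, -0.10 in retina and 0.56 in brain, so that kidney and liver passed the size of 1 under all scalings and heart and lung did not.

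On the deposited scale the footprints of Arntl went with its mRNA in the 4 tissues outside the nervous system and apart from it in brain and retina. In brain they were 8.87 and 8.53 TPM at P42, against 2.90 and 2.99 TPM at E15.5. In retina they were 16.96 and 18.4 TPM at P42, against 10.1 and 6.94 TPM at E15.5. Both were higher at P42, although mRNA overlapped between the stages in brain and was lower at P42 in retina. Relative to the median gene both assays were positive in brain, with 0.56 by mRNA and 1.31 by footprint. Retina stood at -0.10 by mRNA and 0.91 by footprint. On that scale the footprint values were -0.10 in heart, -0.37 in lung, -0.52 in kidney and -0.77 in liver. Liver footprints were 0.213 and 0.460 TPM at P42, against 2.90 and 3.28 TPM at E15.5. Heart footprints were 0.480 and 0.391 TPM at P42, against 2.07 and 2.14 TPM at E15.5. The footprint differences were 1.30 ± 0.162 (SE) in brain, 0.99 in retina, -0.58 in lung, -1.11 in heart, -1.25 in kidney and -1.62 in liver. Of these, brain alone passed a size of 1 under all 4 alternative scalings.

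Per1 and Per2, the repressor genes of the loop that also answer acutely to light, hormones and activity, did not move as a pair with Dbp. Per1 (chr11:69095217-69109960, plus strand) in retina had 42.4 and 48.6 TPM at P42, against 15.9 and 15.9 TPM at E15.5. In heart it had 7.66 and 7.62 TPM at P42, against 25.1 and 21.7 TPM at E15.5. Lung held 30.9 and 25.2 TPM at P42, against 37.0 and 40.6 TPM at E15.5. P42 was above E15.5 in 2 tissues, below it in 3 and overlapping in kidney. The log2 differences were 1.46 in retina, 0.46 in brain, 0.09 in kidney, -0.46 in lung, -0.79 in liver and -1.49 in heart, with a standard error of 0.185. Relative to the median gene all 3 lower values changed sign, to 0.11 in heart, 0.10 in liver and 0.65 in lung. On the deposited scale lung went the other way by footprint, with 38.9 and 28.1 TPM at P42, against 19.6 and 20.7 TPM at E15.5. Relative to the median gene both assays were positive there, with 0.90 by footprint.

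Per2 (chr1:91415982-91459324, minus strand) lay above its E15.5 libraries at P42 in retina, kidney and liver, below them in heart, and overlapped in brain and lung. Retina had 18.4 and 17.7 TPM at P42, against 4.42 and 4.73 TPM at E15.5. Heart had 2.91 and 2.45 TPM at P42, against 7.83 and 7.35 TPM at E15.5. Brain overlapped, with 9.62 and 5.99 TPM at P42 and 8.90 and 9.37 TPM at E15.5. The differences were 1.77 ± 0.198 (SE) in retina and -1.23 in heart. Relative to the median gene the heart value was 0.38, a reversal of sign. Footprints on Per2 in brain did not overlap, with 7.36 and 6.39 TPM at P42, against 2.10 and 1.87 TPM at E15.5. Per3 (chr4:151003652-151044665, minus strand), a less essential relative, had both P42 libraries above both E15.5 libraries in all 6 tissues by mRNA. Its range ran from 3.57 and 3.59 TPM in P42 heart, against 3.28 and 3.24 TPM in E15.5 heart, to 34.3 and 31.4 TPM in P42 retina, against 3.06 and 3.11 TPM in E15.5 retina. Its log2 difference was 0.10 in heart, 1.04 in liver, 1.15 in kidney, 1.41 in lung, 1.48 in brain and 3.05 in retina, with a standard error of 0.181. Ciart (chr3:95878503-95882251, minus strand), which encodes the repressor CHRONO, had 24.9 and 28.7 TPM in P42 brain, against 2.25 and 2.36 TPM in E15.5 brain. Its differences ran from 1.12 ± 0.227 (SE) in heart to 3.07 in brain, with no overlap in any tissue by either assay.

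**Figure D3:**
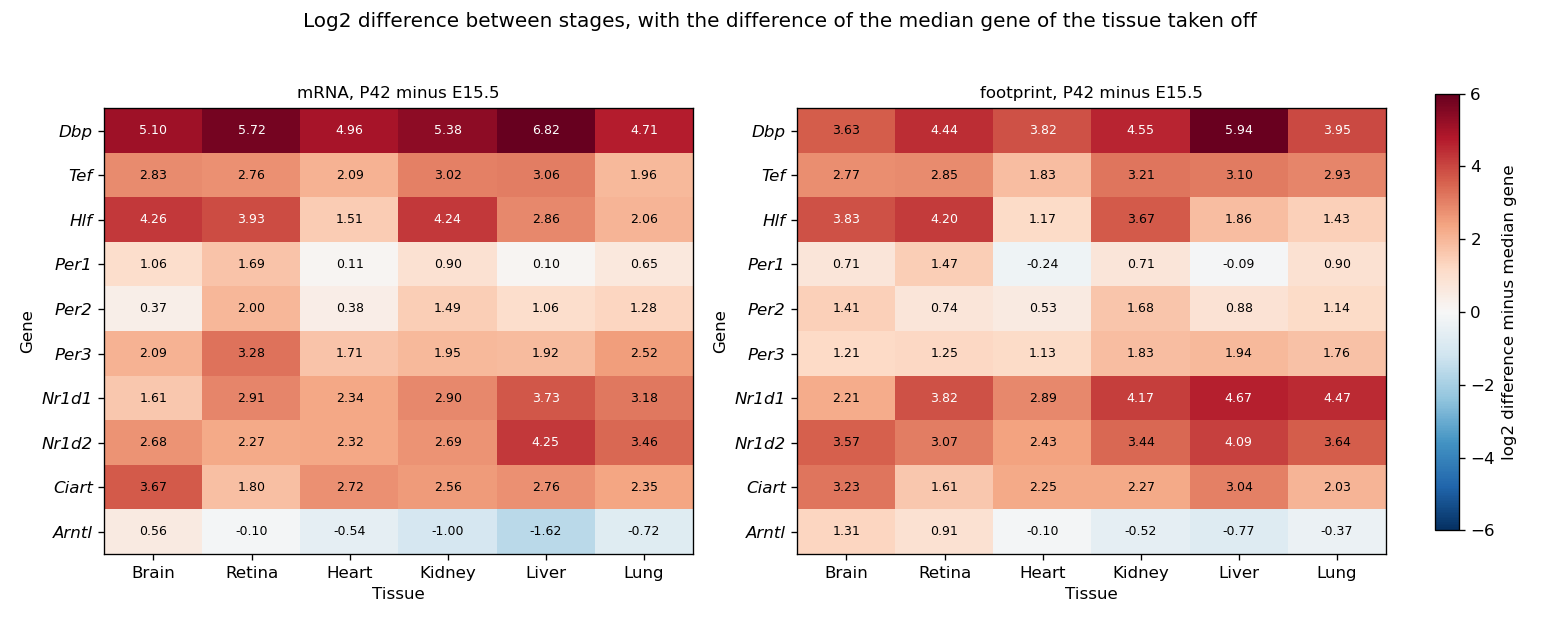
Log2 difference between P42 and E15.5 of each member (rows) in each tissue (columns) by mRNA and by footprint, with the difference of the tissue's median gene taken off; red is higher at P42 and blue lower. Dbp holds the highest value in each column of the mRNA panel, from 4.71 in lung to 6.82 in liver, and Arntl the lowest in every column but brain, where Per2 is lowest.

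A call needed a log2 difference of at least 1 together with an adjusted p under 0.05 in limma, with Benjamini-Hochberg adjustment over all genes tested in the tissue. Because the list was chosen with these differences known, the member counts are set beside the share of all genes and nothing is read from them. By mRNA, 7 of 10 members in brain passed as higher at P42, where 11.7% of all genes did, and 9 in retina, where 18.6% did. Heart had 2 against 2.73%, kidney 7 against 13.1%, liver 7 against 13.4% and lung 5 against 10.1%. Members called lower numbered 0 in brain, where 36.0% of all genes were, and 0 in retina, where 24.7% were. Heart had 3 against 74.6%, kidney 1 against 43.9%, liver 1 against 47.0% and lung 1 against 53.5%. By footprint 9 members were called higher in brain (all genes 20.2%), 8 in retina (21.3%), 7 in lung (18.6%), 7 in liver (10.2%), 7 in kidney (12.2%) and 4 in heart (10.2%). Lower footprint calls numbered 2 in heart (50.6%), 1 in kidney (40.2%) and 1 in liver (44.0%), with 0 in brain (17.7%), retina (16.2%) and lung (22.8%). Of the 37 higher and 6 lower calls by mRNA, 33 and 2 held under every scaling, and of the 42 and 4 by footprint, 41 and 0 did. Other scalings also added calls. With median-of-ratios scaling 11 member calls were gained by mRNA and 3 lost, and heart then had 7 higher and 1 lower, where 20.2% and 14.4% of all genes were called. The heart gains were Tef, Hlf, Per3, Nr1d1 and Nr1d2, and the heart losses Per1 and Per2. A few calls near the threshold rested on single libraries. By mRNA Per3 in kidney lost its call without E15.5 replicate 2 (0.86) or P42 replicate 2 (0.92), Ciart in heart without P42 replicate 1 (0.80), Per3 in liver without P42 replicate 2 (0.99) and Nr1d1 in brain without E15.5 replicate 2 (0.99). By footprint Hlf in lung lost its call without P42 replicate 1 (0.71), Hlf in liver without P42 replicate 2 (0.66) or E15.5 replicate 1 (0.98), and Per3 in liver without P42 replicate 2 (0.74).

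Footprints per message differed among the members in ways that did not follow the stage difference alone. The ratio of mean footprint to mean mRNA was taken where mRNA reached 5 TPM, on the log2 scale after adding 1 to each mean, and set against the median gene of the same tissue and stage. Tef lay below the median gene in 6 of 6 tissues at P42, between -1.17 and -0.166, and in 6 of 6 at E15.5, between -1.43 and -1.09. Hlf lay below it in 6 of 6 tissues at P42 and in 4 of 4 at E15.5, and Dbp in 6 of 6 at P42 and in 3 of 4 at E15.5. The exception, Dbp in E15.5 brain at 0.0741, rests on 3.39 and 1.30 TPM of footprints and was -0.131 with nothing added to the means, a setting chosen after seeing the data. That setting changed the sign of 7 of the 94 ratios of members. Nr1d1 lay above the median gene in 5 of 6 tissues at P42, up to 1.07, and below it in 5 of 5 at E15.5, between -0.743 and -0.288. Per1 lay above it in 5 of 6 tissues at P42 and in 6 of 6 at E15.5. Arntl stood at 1.21 in P42 brain and 0.36 in P42 retina, and between -0.627 and 0.354 at E15.5. Per3 was lowest, at -1.65 in P42 retina.

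**Figure D4:**
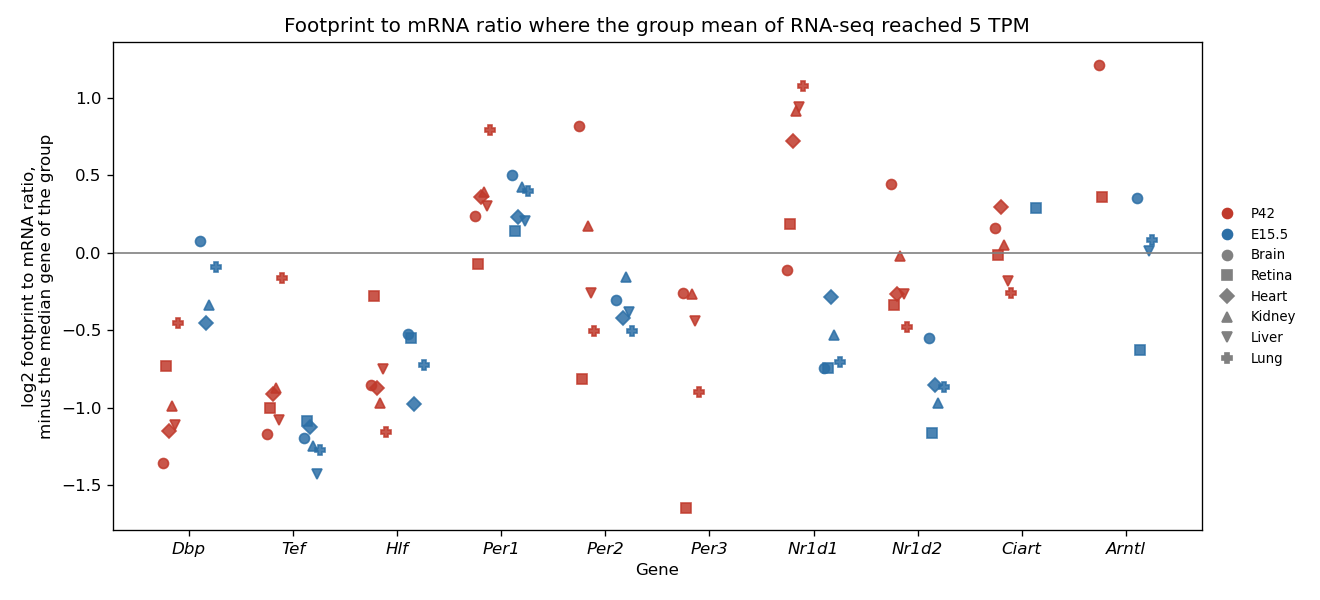
Log2 ratio of footprint to mRNA level of each member, minus that of the median gene of the group, P42 in red to the left of E15.5 in blue, with a symbol for each tissue and only where mean mRNA reached 5 TPM. Tef and Hlf lie below 0 throughout, and Nr1d1 lies between -0.114 and 1.07 at P42 and below 0 at E15.5.

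The change of that ratio between stages, the translational efficiency, had wide errors for these genes. Of the members above 5 TPM mRNA at each stage, 3 of 8 were called higher at P42 in brain, where 27.7% of all genes were, and 2 of 7 in retina, where 11.8% were. In lung 4 of 7 were called, where 39.4% of all genes were. None was called in heart (10.7%), kidney (2.11%) or liver (3.89%), where 6, 6 and 3 members were examined. No member was called lower, against 1.28% of all genes in lung, 1.87% in retina, 2.28% in brain, 4.37% in kidney, 4.94% in heart and 19.6% in liver. The calls were Per2, Nr1d2 and Arntl in brain, Nr1d2 and Arntl in retina, and Tef, Per1, Nr1d1 and Nr1d2 in lung. Of these 9, none held under every scaling, and leaving out P42 lung Ribo-seq replicate 1 ended those of Per1 (0.93) and Nr1d2 (0.60) in lung and took Nr1d1 there to 1.11, against 2.19 with it. Nr1d2 in retina lost its call without either E15.5 Ribo-seq library (1.05 and 1.17), E15.5 RNA-seq replicate 2 (0.96), P42 RNA-seq replicate 2 (1.02) or P42 Ribo-seq replicate 2 (0.87). The log2 difference of efficiency was 1.34 ± 0.233 (SE) for Arntl in brain and 1.32 in retina, or 0.80 and 0.93 relative to the median gene.

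A list of 28 other clock genes, drawn up by role with earlier results of these data known, was measured beside the members. Its differences, and those of the acute genes below, are therefore also a description. Klf9, a Krüppel-like factor that answers to thyroid hormone, glucocorticoid and the clock, rose at P42 in all 6 tissues. Its mRNA in brain was 110.0 and 115 TPM at P42, against 4.20 and 4.23 TPM at E15.5. In heart it was 27.4 and 17.4 TPM at P42, against 6.63 and 6.20 TPM at E15.5. The log2 differences of Klf9 were 4.45 in brain, 4.26 in retina, 2.79 in kidney, 2.54 in lung, 2.51 in liver and 1.62 in heart, with a standard error of 0.219. Among the others that rose most were Usp2, a deubiquitinase of the clock, by 3.50 in brain and 2.91 in kidney, and the E-box repressor Bhlhe41 (DEC2) by 4.88 in retina. Liver was led by Nr1i3 (CAR), a PAR bZIP target in detoxification, with 3.41, and by Usp2 with 3.14. Lung added Tsc22d3, the glucocorticoid-induced leucine zipper, with 2.49. The standard errors of these 6 values lay between 0.184 and 0.240, and each difference held under every scaling.

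Over the list, 39 of 158 gene and tissue pairs were called higher and 53 lower by mRNA, beside 11.7% and 46.1% of all pairs tested. With median-of-ratios scaling the split was 69 higher and 15 lower. All genes shifted too, to between 20.2% and 30.1% higher and between 14.4% and 24.6% lower over the 6 tissues. The number of lower calls therefore depends strongly on scaling, in the list as among all genes. In brain 6 of 28 rose, where 11.7% of all genes did, and 5 fell, where 36.0% did. Retina had 9 and 6 of 28 (18.6% and 24.7% of all genes), kidney 7 and 9 of 26 (13.1% and 43.9%), liver 10 and 8 of 24 (13.4% and 47.0%) and lung 6 and 10 of 26 (10.1% and 53.5%). In heart 1 rose and 15 fell of 26, near or below the 2.73% and 74.6% of all genes. The median of the list relative to the median gene was 0.40 in retina, 0.48 in lung, 0.52 in both brain and heart, 1.02 in kidney and 1.31 in liver. By footprint 53 of 144 pairs were called higher and 25 lower, beside 15.5% and 31.6% of all pairs. Timeless, a replication fork protein named for its fly relative, fell by mRNA in all 6 tissues and was among the largest falls in brain (-2.24), retina (-3.22), kidney (-3.28), liver (-3.20) and lung (-2.23). The lung call did not hold under every scaling, nor did a smaller call of -1.51 in heart, which turned positive under median-of-ratios scaling. Nfil3, the repressor that competes with PAR bZIP factors at D-boxes, fell by 2.48 in brain and by 3.27 in heart, under every scaling. Wee1, a mitotic kinase and clock output, fell by 2.78 in retina, 3.20 in heart and 2.77 in lung. Csnk1e, a kinase of the PER proteins, fell by 2.84 in kidney, and Btrc, a ubiquitin ligase subunit, fell by 3.42 in liver. The named falls were picked by size and are likewise a description.

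**Figure D5:**
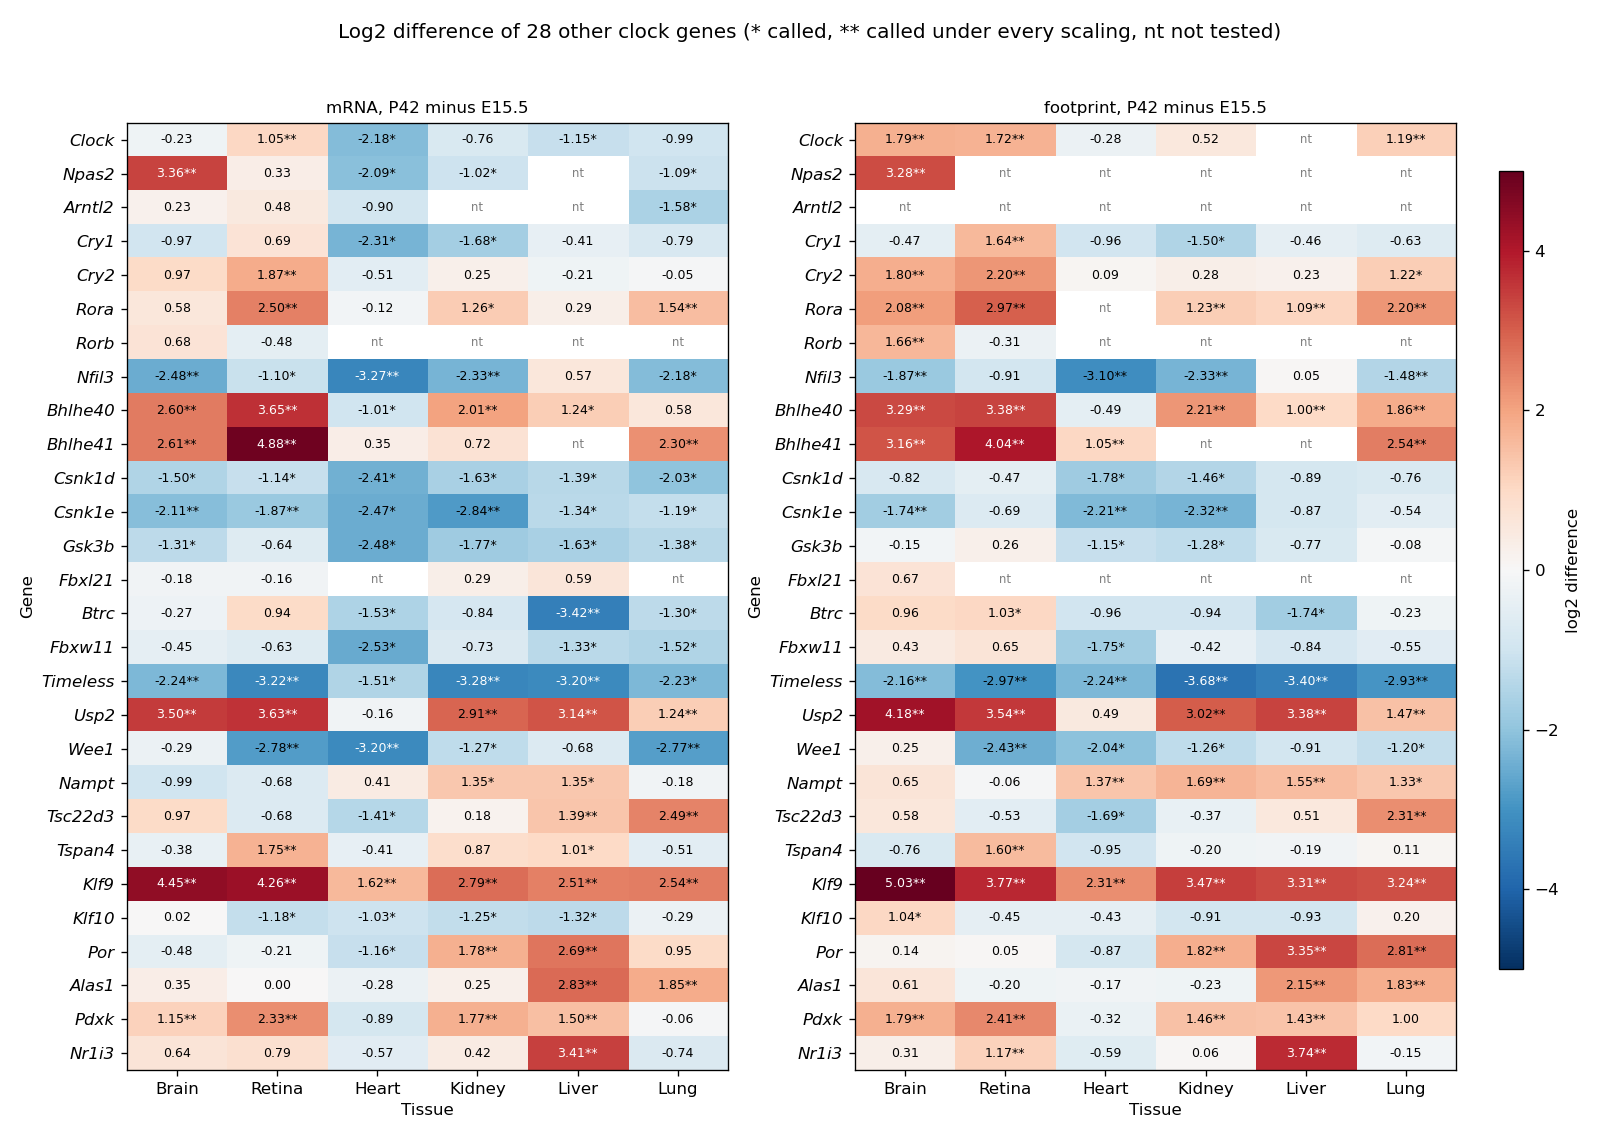
Log2 difference between P42 and E15.5 on the log2(TPM + 1) scale of 28 other clock genes (rows) in each tissue (columns) by mRNA and by footprint; one asterisk marks a call and 2 a call under every scaling. Klf9 is red in every column of both panels and Timeless blue in every column of both, and the heart column of the mRNA panel holds 15 calls of lower and 1 of higher.

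The binding partners of ARNTL were called higher at P42 in different tissues by mRNA, Npas2 in brain and Clock in retina, and both were called lower in heart. Npas2 mRNA in brain was 26.0 and 26.7 TPM at P42, against 1.71 and 1.61 TPM at E15.5. In heart it was 0.449 and 0.258 TPM at P42, against 4.69 and 4.82 TPM at E15.5. The difference between these stage changes, brain minus heart, was 5.46 ± 0.221 (SE), given with no test because the tissues were picked by these values. Clock mRNA in retina was 35.8 and 26.0 TPM at P42, against 12.99 and 15.5 TPM at E15.5. In heart it was 1.65 and 1.502 TPM at P42, against 10.6 and 10.7 TPM at E15.5. For Clock the retina change exceeded the heart change by 3.23 ± 0.295 (SE), likewise a description. In both genes the heart fall itself did not hold under every scaling, and the retina rise of Clock, 1.05, was not called without E15.5 replicate 1 (0.93) or P42 replicate 1 (0.83). On the deposited scale Clock footprints went apart from Clock mRNA in brain, with 5.93 and 5.15 TPM at P42, against 0.999 and 0.786 TPM at E15.5. Its mRNA in brain was 9.93 and 10.99 TPM at P42, against 12.4 and 12.3 TPM at E15.5. That fall was smaller than the -0.60 of the median gene in brain, so relative to the median gene both assays were positive. The efficiency of the median gene differed by 0.54 in brain and 0.81 in lung. The translational efficiency of Clock was higher at P42 by 2.01 ± 0.260 (SE) in brain and by 2.18 ± 0.260 (SE) in lung. Along with Nampt, the enzyme of NAD salvage, at 1.64 in brain, these were the 3 calls of efficiency that held under every scaling. In all, 17 of 111 pairs were called higher, beside 17.1% of all pairs, and 1 lower, beside 4.89%. The other calls in brain were Rora at 1.5, Gsk3b at 1.16, Btrc at 1.23 and Klf10 at 1.02. Those in retina were Csnk1e at 1.18 and Fbxw11 at 1.28. Lung added Pdxk, Csnk1d, Cry2, Bhlhe40, Gsk3b, Nampt, Wee1 and Por, between 1.06 and 1.86. The lower call was Tspan4 in liver, at -1.19. Leaving out single libraries of the tissue ended the calls of Klf10 in brain (0.84 to 0.87 without 1 of 3 libraries), Csnk1e in retina (1.09 without E15.5 Ribo-seq replicate 2) and Tspan4 in liver (-1.15 to -0.70 without 1 of 4). In lung it ended those of Bhlhe40 (0.95 without P42 Ribo-seq replicate 1) and Pdxk (0.73 to 0.94 without 1 of 3).

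Genes of acute stimulation were set beside the clock genes, since Per1 and several outputs also respond within the hour to handling, light and hormone. By mRNA 4 of 8 such genes tested in brain were called higher and 0 lower, beside 11.7% and 36.0% of all genes. Lung had 5 and 0 of 8 (10.1% and 53.5% of all genes), retina 4 and 2 of 7 (18.6% and 24.7%), kidney 0 and 2 of 7 (13.1% and 43.9%) and liver 0 and 0 of 5 (13.4% and 47.0%). Heart had 0 and 4 of 7 (2.73% and 74.6%), and none of these 4 held under every scaling. Fos, an immediate early transcription factor, had 30.1 and 32.1 TPM in P42 retina, against 0.603 and 0.469 TPM in E15.5 retina. In lung it had 33.0 and 8.99 TPM at P42, against 4.37 and 4.42 TPM at E15.5. Nr4a1, an immediate early nuclear receptor, had 78.0 and 12.4 TPM in P42 lung, against 11.6 and 12.6 TPM in E15.5 lung. In P42 lung the same RNA-seq library was the higher one for Fos, Nr4a1, Dbp and Nr1d1. Tef, Hlf, Per1, Per3 and Nr1d2 were also higher in it, while Per2, Ciart and Arntl were higher in the other library. The part of acute response in the clock gene values was not tested. Fos was called higher by 2.06 ± 0.320 (SE) in brain, 4.39 in retina and 1.77 in lung. Nr4a1 was called higher by 1.75 ± 0.452 (SE) in brain, 2.22 in retina and 1.31 in lung, the last with stages that overlap. Without P42 lung RNA-seq replicate 1 neither lung call was made, with Fos at 0.89 and Nr4a1 at 0.03.

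The genes whose mRNA profile was most like that of Dbp were ranked over the 12 tissue and stage groups among 13011 genes with a mean of at least 5 TPM. They were Sphk2 with a Pearson correlation of 0.958, Klf9 with 0.903, Tef with 0.897 and Ifit3 with 0.896. Sphk2 shares exonic bases with Dbp, as given above. For Arntl they were Plekhm3 with 0.950, Lmln with 0.933, Hspa4l with 0.929 and Akap8l with 0.929. All 4 shared with Arntl the highest level in retina at both stages, as with Plekhm3 at 26.7 TPM in P42 retina and 20.3 TPM in E15.5 retina. The 12 points share stages, tables and tissues, so the correlations only describe likeness over these groups.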

How the data were processed

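Polyadenylated RNA and ribosome footprints (ARTseq kit after Ribo-Zero, per the labels' protocols) were sequenced from 6 tissues at 2 stages. Per the submitters' processing notes, the tools named include CASAVA 1.8.2, cutadapt 1.8.1, TopHat2 2.0.14 and featureCounts 1.6.2, with build GRCm38.p6. The authors deposited TPM values, 1 table for each stage and assay, so stage and table coincide. Read counts were not used here, so the depth and the precision it gives are unknown. Whether replicates were separate animals beyond the label of biological replicate is not given in the sources used here.

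The scale was log2(TPM + 1). Tests covered genes with 1 TPM or more in at least 2 of 24 libraries and in the mean of the tissue. Translational efficiency, footprint minus mRNA on the log2 scale, needed a mean of 5 TPM mRNA at each stage. Linear models over all genes, with tissue and stage combined into groups, used limma 3.58.1 in R 4.3.3, with a variance trend, 12 residual degrees of freedom per assay and 24 over both. They were tested on simulated data. Tables used Python 3.11.15, numpy 2.4.6 and pandas 2.3.3, and figures matplotlib 3.10.9. The members and lists were chosen with earlier results of these data known, and some listed genes are not reported here.

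Named besides the 10 members were the 2 largest called rises and falls of the 28 listed clock genes in each tissue by mRNA, those called by efficiency, acute genes called in at least 3 tissues in 1 direction, and the 4 genes most correlated with Dbp or Arntl. The stage changes of 5 listed genes that rose in one tissue and fell in another were compared between tissues as a description, since the genes and tissues were picked by the same values. Alternatives were 4 scalings (median of ratios, mitochondrially encoded genes left out, contrasts centred on the median gene, listed genes brought to equal sums), pseudocounts of 0.25 and 4, no filter, a stricter filter of 5 TPM with an mRNA floor of 20, a replicate block, no variance trend, each tissue alone and each library left out, with no pseudocount for the footprint to mRNA ratio added after seeing the data.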

Additional observations from a re-analysis of the deposited data

Results flagged for a closer look

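For 5 listed clock genes the stage change by mRNA was called higher in one tissue and lower in heart. Genes and tissues were picked by these same values, so the difference between the tissue of the largest rise and heart is a description with no test. Npas2 rose by 3.36 in brain and was lower by -2.09 in heart, a difference of 5.46 ± 0.221 (SE). Bhlhe40, the E-box repressor DEC1, differed between retina at 3.65 and heart at -1.01 by 4.66 ± 0.312 (SE), and its heart fall was not called without P42 heart replicate 2 (-0.89). Tsc22d3 differed between lung at 2.49 and heart at -1.41 by 3.90 ± 0.277 (SE). Por, the electron donor of cytochrome P450 enzymes, differed between liver at 2.69 and heart at -1.16 by 3.86 ± 0.288 (SE). Clock differed between retina at 1.05 and heart at -2.18 by 3.23 ± 0.295 (SE). Of the 19 alternatives run, the changed filters, the replicate block, no variance trend and the tissues alone cannot move these differences. Under the rest the 5 differences kept their sign, which the picking of the largest rise and fall favours. With a pseudocount of 4 Npas2 came to 3.43, and with median-of-ratios scaling Bhlhe40 came to 2.74 and Clock to 1.96. The heart values alone did not hold under every scaling.

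Among the members, Per1 and Per2 mRNA moved in opposite directions in retina and heart in both libraries of each group, and these differences were not tested. Per1 stood at 1.46 in retina and -1.49 in heart, 2.95 apart. Per2 stood at 1.77 in retina and -1.23 in heart, 3.00 apart. Both heart values turned positive under median-of-ratios scaling and relative to the median gene.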

How the results depend on the processing

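Counts of listed clock genes followed the scaling. By mRNA, 39 pairs higher and 53 lower became 69 and 15 with median-of-ratios scaling, or 67 and 16 with contrasts centred on the median gene, and 25 lower by footprint became 14 and 15. Shares of all genes moved as well. With median of ratios, 20.2% to 30.1% over the tissues were higher by mRNA and 14.4% to 24.6% lower, and 11% to 19.1% were lower by footprint. When centred, the shares were 16% to 26.1%, 11.9% to 22.7% and 11.5% to 19.3%. By efficiency, 17 higher became 3 with median of ratios, 30 with equal sums, 6 when centred, 27 with no filter and 7 with the stricter filter. Of all genes, 1.24% to 7.96% over the tissues were higher with median of ratios, 10.6% to 49.4% with equal sums and 2.91% to 9.51% when centred. The shares under the changed filters are not given here. The 1 lower pair became 6 with median of ratios, 3 without mitochondrially encoded genes, 2 with either pseudocount, and 0 with each tissue alone. Of all genes, 3.88% to 25.6% were lower with median of ratios and 1.47% to 24.3% without mitochondrially encoded genes. Leaving out a library gave 37 to 40 higher and 50 to 56 lower by mRNA, 51 to 54 and 25 to 31 by footprint, and 15 to 19 and 0 to 3 by efficiency. Heart mRNA values that turned positive with median of ratios were Per1 at 0.39, Per2 at 0.46, Bhlhe40 at 0.91, Timeless at 0.24, Tsc22d3 at 0.57, Klf10 at 0.84 and Por at 0.75, with Gsk3b footprints in heart at 0.04 and Csnk1e in lung at 0.09. Centring gave, in heart, Per1 at 0.11, Per2 at 0.38, Bhlhe40 at 0.60, Btrc at 0.08, Timeless at 0.10, Tsc22d3 at 0.20, Klf10 at 0.58 and Por at 0.45, and Npas2 in lung at 0.02. Without mitochondrially encoded genes Bhlhe40 stood at 0.06 and Klf10 at 0 in heart. The causes were not tested beyond the shift of the median gene. Replicate numbers are shared by the groups but deviations of same-numbered libraries correlated by -0.523 to 0.317 between stages, over 0.1 in 5 of 12 pairs, and by -0.29 to 0.351 between assays, over 0.1 in 4 of 12 pairs, so no pairing was used. A replicate block common to all groups cannot move a difference in this design, since every group holds both replicate numbers. It can change only the errors, so it is no check on pairing within a tissue. Counts with it were 39 and 53 pairs by mRNA, 53 and 25 by footprint and 17 and 1 by efficiency. By design the tissue differences stayed at 5.46 for Npas2, 4.66 for Bhlhe40, 3.90 for Tsc22d3, 3.86 for Por and 3.23 for Clock. Of 43 member calls by mRNA a pseudocount of 4 lost 9 and the stricter filter 6, and of 46 by footprint they lost 18 and 16. Leaving out a library lost at most 1 member call by mRNA and 2 by footprint. With no pseudocount, a setting chosen after seeing the data, 22 of 94 footprint to mRNA ratios moved by more than the residual SD and 7 changed sign. Libraries of P42 liver Ribo-seq mattered for Hlf footprints, whose difference of 1.01 became 1.36 without replicate 1 and 0.66 without replicate 2. The 2 replicates per group, an unknown depth and an unknown hour of collection limit these values.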
